A study of Canis lupus familiaris with 8 samples.

Results

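NDUFS8, COX8A and TIMM8A are nuclear genes for mitochondrial proteins, and their transcripts were followed across a canine mammary carcinoma line, its doxorubicin-resistant subline and the stem-like cells sorted from each. A gene probe was taken if its RefSeq accession maps to 1 of these 3 genes. Each gene had 1 probe with 1 spot, so there were 3 probes of 43603 on the array and 3 genes of the 1458 that could be named. All 3 probes were well above background on all 8 arrays. The genes were chosen by scaled signal values already known from these arrays: NDUFS8 for its lower level in the resistant line, and COX8A and TIMM8A for their lower levels in the sorted cells of the sensitive line. Their comparisons with the unsorted sensitive line are therefore a description and carry no test.

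Total RNA was hybridised to 1-colour (Cy3) arrays, 2 arrays for each of 4 groups. Star CSC were cells positive for CD44 and for aldehyde dehydrogenase with little or no CD24, called cancer stem cells (CSC) and sorted by flow cytometry from CMT-Star. Star parent was unsorted CMT-Star, a subline grown out of CMT-Stylo over several months of rising doxorubicin until it tolerated 100 nM. Stylo CSC were sorted by the same markers from CMT-Stylo, and Stylo parent was unsorted CMT-Stylo, both labelled as not treated. The Star arrays are labelled as doxorubicin treated, and whether the drug was present at harvest is not given in the sources used here. All groups descend from the same canine line, and nothing in the labels says that replicates came from separate cultures, so the spread behind each p-value may be no more than technical.

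The respiratory chain passes electrons from NADH and succinate through complexes in the inner mitochondrial membrane to oxygen, and the proton gradient so built drives ATP synthase. NDUFS8 carries iron-sulphur clusters in complex I, the NADH dehydrogenase. COX8A is the small nuclear-encoded subunit VIII of complex IV, cytochrome c oxidase, which hands electrons to oxygen. Nearly all proteins of these complexes are made in the cytosol and imported. TIMM8A is a small chaperone of the intermembrane space that works with TIMM13 to escort hydrophobic precursors, such as that of the inner membrane translocase subunit TIMM23, across that space. In humans its loss causes a deafness and dystonia syndrome. Doxorubicin is known to bind cardiolipin of the inner membrane and to be reduced at complex I.

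The Stylo parent arrays stood apart. On them the 75th percentile of the processed signal (the scanner software's background-subtracted intensity) was 88.3 and 69.2, against 296 to 536 elsewhere. The brightest 100 probes held 32.9% and 34.0% of their signal, against 12.9% to 22.9% elsewhere. Levels below are log2 of the processed signal over the array's 75th percentile, called scaled levels, so both facts bear on every comparison with Stylo parent. Replicate arrays correlated at 0.981 to 0.996 across 26823 tested probes. The Stylo arrays lay on slide 1 and the Star arrays on slide 2, so line and slide cannot be told apart, while both sorts were compared within a slide. Of the epithelial markers only CDH1 and KRT19 had a named probe, and neither was well above background on the Stylo parent arrays. The basal keratin KRT14 was above background on all arrays.

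NDUFS8 was highest in Stylo parent on the scaled scale and differed less among the other groups. Its scaled log2 level was 5.10 and 5.08 on the Star CSC arrays, 4.68 and 5.05 on the Star parent arrays, 5.55 and 5.46 on the Stylo CSC arrays and 6.54 and 6.77 on the Stylo parent arrays. No 2 groups overlapped, and 87.1% of all tested probes likewise did not overlap between Star parent and Stylo parent and 88.9% between Stylo CSC and Stylo parent. The nearest arrays of Star CSC and Star parent lay close together. As a description, NDUFS8 was 3.46-fold lower in Star parent than in Stylo parent (log2 difference -1.79 ± 0.15, SE) and 2.22-fold lower in Stylo CSC than in Stylo parent (-1.15 ± 0.15).

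COX8A had the same order at its high end, with Stylo parent above 3 groups that could not be ordered. The scaled log2 level was 6.29 and 6.38 in Star CSC, 6.31 and 6.52 in Star parent, 6.59 and 6.34 in Stylo CSC and 7.48 and 7.90 in Stylo parent. The first 3 groups overlapped with one another and none overlapped with Stylo parent. COX8A was 2.42-fold lower in Star parent than in Stylo parent (-1.27 ± 0.18) and 2.33-fold lower in Stylo CSC than in Stylo parent (-1.22 ± 0.18).

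TIMM8A had the widest range of the 3 genes. Its scaled log2 level was -0.52 and -0.55 in Star CSC, -0.27 and -0.35 in Star parent, -0.92 and -0.74 in Stylo CSC and 2.97 and 2.84 in Stylo parent. The 6 arrays outside Stylo parent lay within a narrow band below the array's 75th percentile, and both Stylo parent arrays lay far above it. TIMM8A was 9.31-fold lower in Star parent than in Stylo parent (-3.22 ± 0.11) and 13.3-fold lower in Stylo CSC than in Stylo parent (-3.74 ± 0.11). Ranked from the most negative difference over 26823 probes, TIMM8A stood at place 79 in Stylo CSC against Stylo parent and at place 1192 in Star parent against Stylo parent. In the same order NDUFS8 stood at places 7994 and 5057 and COX8A at 7589 and 7492. These comparisons chose the genes, so the places are a description.

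**Figure D1:**
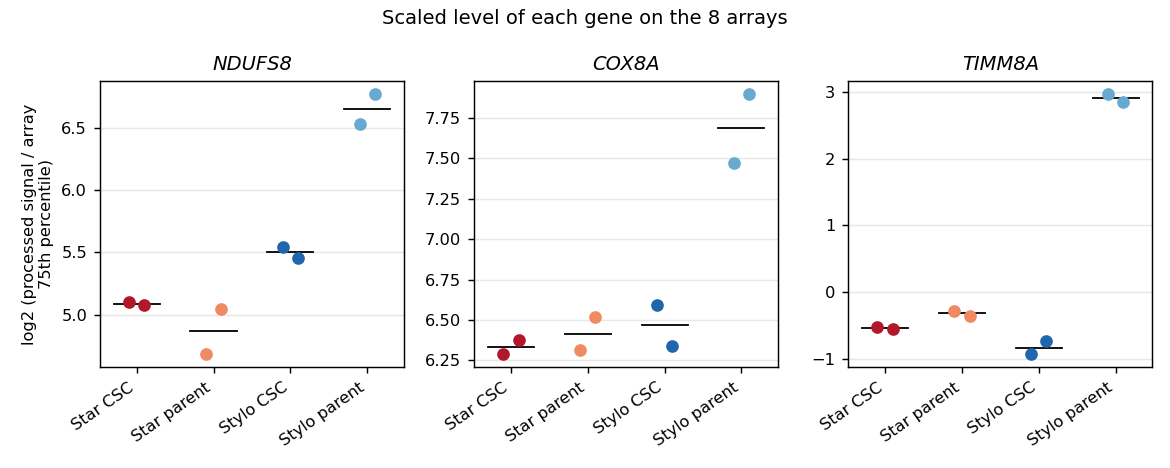
Scaled level (log2 of processed signal over the array's 75th percentile, vertical axis) of NDUFS8, COX8A and TIMM8A in 4 groups of 2 arrays; points are arrays and bars are group means. Both Stylo parent arrays lie above the other 6 for each gene, by the widest margin for TIMM8A, where they stand at 2.97 and 2.84 and all other arrays are below 0.

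Before scaling, the 3 genes parted. The processed signal of NDUFS8 was 18418 and 15632 in Star CSC, 9538 and 10939.6 in Star parent, 14473 and 13036 in Stylo CSC and 8199 and 7576 in Stylo parent. The signal of COX8A was 41914 and 38515 in Star CSC, 29483 and 30312 in Star parent, 29883 and 24047 in Stylo CSC and 15714 and 16527 in Stylo parent. For both respiratory chain genes the Stylo parent arrays thus had the lowest signal of all, the opposite of the scaled order. TIMM8A gave 375 and 316 in Star CSC, 307 and 259 in Star parent, 163 and 178 in Stylo CSC and 691 and 497 in Stylo parent. Its Stylo parent signal was the highest both before and after scaling, on the dimmest arrays of the series.

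**Figure D2:**
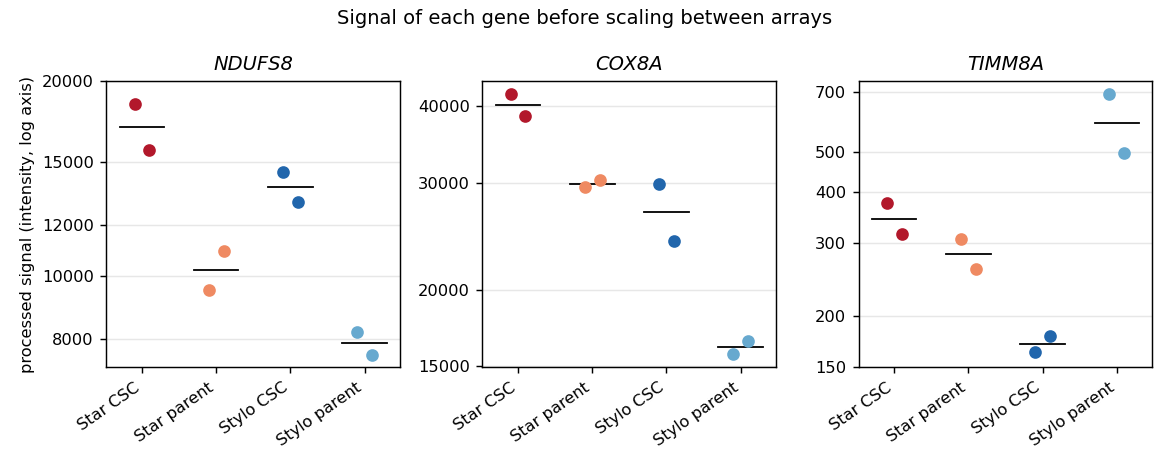
Processed signal (intensity, log axis that does not start at 0) of the 3 genes before any scaling between arrays; points are arrays and bars are geometric means. The Stylo parent arrays are lowest for NDUFS8 (8199 and 7576) and COX8A (15714 and 16527) but highest for TIMM8A (691 and 497).

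The difference from Stylo parent depended on scaling for the 2 respiratory chain genes and kept its sign for TIMM8A. In Star parent against Stylo parent, TIMM8A ran from -3.29 with cyclic loess to -1.82 with normexp background correction. In Stylo CSC against Stylo parent it ran from -3.82 with cyclic loess to -1.77 with spike-in scaling. NDUFS8 in Star parent stayed negative but shrank to -0.55 with quantile normalization and -0.16 with normexp. COX8A in Star parent turned to 0.44 with quantile normalization, 0.12 with cyclic loess and 0.44 with normexp. In Stylo CSC against Stylo parent, NDUFS8 turned to 0.81 with spike-in scaling and 0.38 with normexp, and COX8A to 0.74 and 0.32. Quantile normalization, which gives every array the same distribution, left them at -0.24 and -0.06 there. At the reported scaling all 3 genes were at least 2-fold lower in both comparisons. Over all tested probes 31.9% were called lower in Star parent against Stylo parent and 32.1% in Stylo CSC against Stylo parent, where a call needs an adjusted p under 0.05 and a change of at least 2-fold. Since these comparisons chose the genes, nothing is read from that count.

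**Figure D3:**
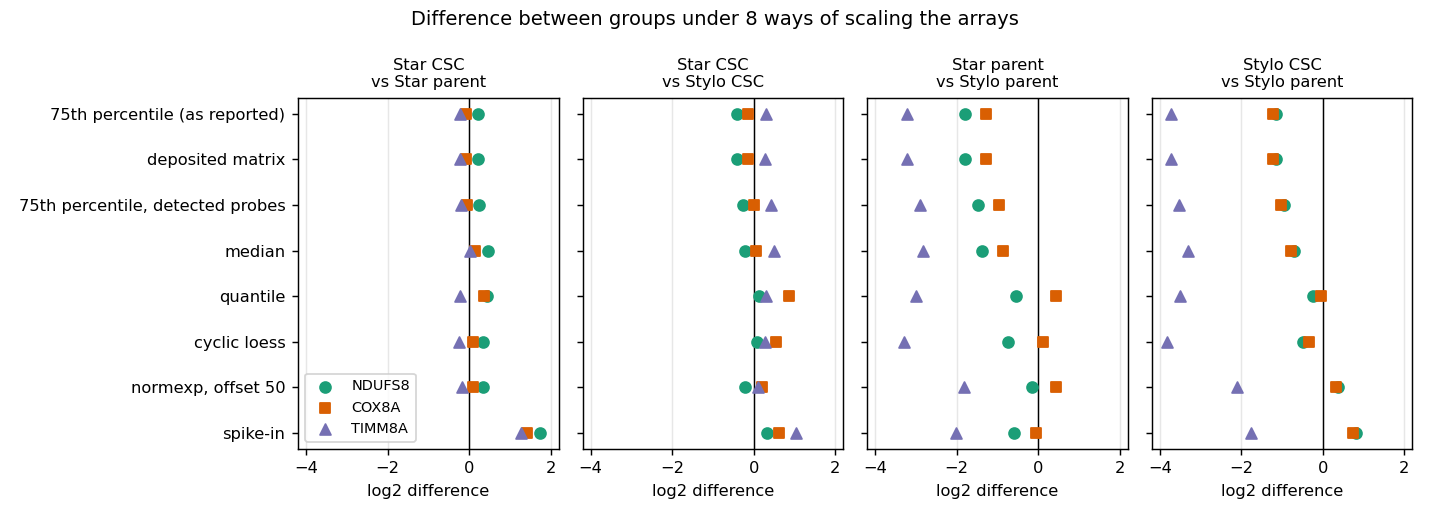
Log2 difference (horizontal axis) of NDUFS8, COX8A and TIMM8A in 4 comparisons, under 8 ways of scaling or correcting the arrays (vertical axis). TIMM8A stays left of 0 in both comparisons with Stylo parent, at most -1.77, while NDUFS8 and COX8A move toward or past 0 with quantile normalization, cyclic loess, normexp and spike-in scaling.

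Star CSC against Star parent asks what sorting separates within the resistant line. The comparison itself did not choose the genes, but it shares the Star parent arrays with the comparison that chose NDUFS8. Its test for NDUFS8 is therefore not wholly free of that choice. None of the 3 genes was called. NDUFS8 differed by 0.22 ± 0.15 (SE; 1.17-fold, 95% interval 0.90 to 1.52; adjusted p = 0.308, limma). COX8A differed by -0.08 ± 0.18 (0.94-fold, interval 0.70 to 1.28; adjusted p = 0.749, limma), its arrays overlapping. TIMM8A differed by -0.22 ± 0.11 (0.86-fold, interval 0.71 to 1.03; adjusted p = 0.176, limma). At this scaling each interval lay inside a 2-fold change in either direction. In this comparison 9.72% of tested probes were called. The count of 0 members from limma's fit was also 0 at an unadjusted p under 0.05, which 43.3% of tested probes passed. The arrays of NDUFS8 and TIMM8A did not overlap between groups, as for 71.6% of all tested probes. The signs of COX8A and TIMM8A were not stable: COX8A was 0.36 with quantile normalization and TIMM8A was 0.01 with median scaling. With spike-in scaling all 3 genes were called as higher (1.73 for NDUFS8, 1.43 for COX8A and 1.29 for TIMM8A), while the median of all tested probes stood at 1.41 under that scaling, against -0.10 at the reported one.

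Star CSC against Stylo CSC compares the sorted cells of the resistant and the sensitive line. It shares the Stylo CSC arrays with the comparison that chose COX8A and TIMM8A, so their tests here are not wholly free of that choice. No member was called in limma's fit, against 29.4% of tested probes, while 2 of 3 had an unadjusted p under 0.05, as did 62.5% of tested probes. NDUFS8 differed by -0.41 ± 0.15 (0.75-fold, 95% interval 0.58 to 0.98; adjusted p = 0.0620, limma), with both Star CSC arrays below both Stylo CSC arrays. TIMM8A differed by 0.30 ± 0.11 (1.23-fold, interval 1.02 to 1.48; adjusted p = 0.0608, limma), with both Star CSC arrays above. COX8A differed by -0.13 ± 0.18 (0.91-fold, interval 0.67 to 1.23; adjusted p = 0.545, limma). Arrays did not overlap between groups for 85.9% of all tested probes. NDUFS8 turned to 0.14 with quantile normalization and 0.09 with cyclic loess. COX8A turned to 0.86 (adjusted p = 0.00276, limma) and 0.54 (adjusted p = 0.0237, limma) in the same order, both under a 2-fold change. TIMM8A stayed positive under every scaling run (0.11 to 1.05), the highest, with spike-in scaling, being called. NDUFS8 and TIMM8A sat at the edge of the test. With only probes above background on all 8 arrays the adjusted p was 0.0450 for NDUFS8 and 0.0409 for TIMM8A (limma), still under a 2-fold change. Among settings run on all arrays of the comparison, limma's adjusted p for NDUFS8 ran from 0.0143 (only the 4 arrays compared) to 0.619 (normexp). For TIMM8A it ran from 0.0172 (spike-in scaling) to 0.673 (normexp). The marker sums also differed between groups. The basal keratin KRT14, 1 measured gene of 5, stood at 0.563 to 0.627 times the 75th percentile in Star CSC and 0.685 to 0.835 in Star parent. It stood at 1.51 to 1.56 in Stylo CSC and 2.61 to 3.50 in Stylo parent. The 4 measured fibroblast genes of 7 (COL1A1, COL1A2, DCN and THY1), above background everywhere, summed to 114 to 125 times the 75th percentile in Star CSC, 126 to 198 in Star parent, 608 to 648 in Stylo CSC and 76.9 to 83.5 in Stylo parent. The 2 measured epithelial genes of 6 summed to 0.264 to 0.297 in Star CSC, 0.0976 to 0.106 in Star parent, 0.627 to 0.724 in Stylo CSC and 0.0718 to 0.0976 in Stylo parent. The 3 measured leukocyte genes of 6 (CD79A, CD86 and TYROBP) summed to 1.02 to 1.07 in Star CSC, 0.0988 to 0.129 in Star parent, 0.0411 to 0.0607 in Stylo CSC and 0.156 to 0.159 in Stylo parent. TYROBP was above background in Star CSC only. The 2 measured endothelial genes of 4 (VWF and KDR) summed to 0.560 to 0.960 in Star CSC, 1.18 to 1.48 in Star parent, 1.05 to 1.31 in Stylo CSC and 2.25 to 2.72 in Stylo parent. On this scale KRT14 and the endothelial sum were highest in Stylo parent, as were the 3 members. The fibroblast, epithelial and leukocyte sums were not. KDR of the endothelial genes and CD86 of the leukocyte genes were above background on all Star arrays and on no Stylo array. The sums also count probes not above background, divided by a 75th percentile that was low on the Stylo parent arrays. The part of these markers in the members' values was not tested, and in these bulk samples fewer cells of a type and less RNA per cell cannot be told apart.

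The sorted and unsorted cells of each line can be set side by side on the scaled log2 axis. NDUFS8 stood at 0.22 in Star CSC against Star parent and at -1.15 in Stylo CSC against Stylo parent. COX8A stood at -0.08 and -1.22, and TIMM8A at -0.22 and -3.74, in the same order. The gap between the sorts was 1.38 for NDUFS8, 1.14 for COX8A and 3.52 for TIMM8A, a description because the Stylo side chose the genes, beside 52.1% of all tested probes called for this gap. With normexp it was -0.04 for NDUFS8, -0.24 for COX8A and 1.93 for TIMM8A.

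Lists of respiratory chain, assembly, import, carrier, citric acid cycle and biogenesis genes held 246 symbols, of which 12 besides NDUFS8, COX8A and TIMM8A had a named probe and 10 were tested. UCP1 was not well above background on any array and UCP3 on too few to be tested. No other subunit of complex I or complex IV and no other import gene could be named on this array. In Star parent against Stylo parent 6 of the 10 were called as lower and none as higher. Of all tested probes, 31.9% were called as lower and 56.5% in either direction. The median log2 difference of the 10 was -1.39, against -0.20 over all tested probes. At an adjusted p under 0.05 with any fold, 7 were lower and 2 higher. The 2 higher were DLD (0.41 ± 0.14, adjusted p = 0.0328, limma) and UCP2 (0.74 ± 0.26, adjusted p = 0.0411, limma). COX17, the copper chaperone of cytochrome c oxidase, had scaled levels of 4.40 and 4.23 in Star parent against 6.97 and 7.19 in Stylo parent (-2.76 ± 0.12, adjusted p = 8.06e-06). Cytochrome c, CYCS, the carrier between complexes III and IV, had 5.55 and 5.51 against 7.82 and 7.77 (-2.26 ± 0.09, adjusted p = 6.67e-06). Both gene products act at or beside cytochrome c oxidase, the complex of COX8A. The difference of COX8A itself was -1.27, but turned to 0.44 with quantile normalization and normexp and to 0.12 with cyclic loess. A link between these genes was not tested.

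The other 4 genes called as lower in Star parent were VDAC3, SDHB, ATP5F1A and SSBP1. VDAC3 is a pore of the outer membrane (-1.80 ± 0.10) and SDHB the iron-sulphur subunit of complex II (-1.43 ± 0.10). ATP5F1A is the alpha subunit of ATP synthase (-1.34 ± 0.09), and SSBP1 binds single-stranded mitochondrial DNA (-4.27 ± 0.98). SSBP1 split between arrays, at -0.72 and 2.48 in Star parent against 5.19 and 5.10 in Stylo parent. Its difference was -2.66 without Star parent replicate 1 and -5.87 without Star parent replicate 2, called both times. A second probe of ATP5F1A, above background on all 8 arrays, stood at -0.91 and was not called, while the second probe of SDHB was called as lower (-1.31). Under other scalings several of these calls ended. CYCS was not called with quantile normalization (-0.70) or normexp (-0.64). VDAC3 was not called with quantile normalization (-0.41), cyclic loess (-0.72), spike-in scaling (-0.60) or normexp (-0.20). SDHB stood at -0.10 with quantile normalization, -0.23 with cyclic loess and -0.23 with spike-in scaling, and ATP5F1A at -0.94 with median scaling and -0.14 with spike-in scaling, none of them called. ATP5F1A turned to 0.71 with quantile normalization, 0.32 with cyclic loess and 0.50 with normexp, and SDHB to 0.11 with normexp. COX17 (-2.76 to -1.03) and SSBP1 (-4.27 to -2.56) stayed called as lower under all 12 alternative settings run on all arrays of the comparison. UCP2, an uncoupling-protein carrier of the inner membrane, stood at 0.74 and was not called at the reported scaling. It was called as higher with median scaling (1.14) and spike-in scaling (1.94). The 75th percentile of probes above background on all arrays also gave a call as higher (1.06). UCP2 stood at 1.06 without Star parent replicate 1 and at 1.02 without Stylo parent replicate 2.

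In Stylo CSC against Stylo parent 3 of the 10 were called as lower and 1 as higher. Of all tested probes, 32.1% were called as lower and 54% in either direction. The median of the 10 was -0.78, against -0.28 over all tested probes. At an adjusted p under 0.05 with any fold, 6 were lower and 2 higher. The 2 higher were UCP2 and DLD (0.48 ± 0.14, adjusted p = 0.0187, limma). The falls that were called were in COX17 (-2.46 ± 0.12), CYCS (-2.11 ± 0.09) and VDAC3 (-1.65 ± 0.10). UCP2 was called as higher, with scaled levels of -0.03 and 0.07 in Stylo CSC against -2.30 and -1.75 in Stylo parent (2.04 ± 0.26, adjusted p = 0.000638). None of these 3 falls was called with spike-in scaling, where COX17 stood at -0.50 and CYCS at -0.15 and VDAC3 turned to 0.31, or with normexp (-0.82 for COX17, -0.52 for CYCS and -0.080 for VDAC3). Quantile normalization ended the calls of CYCS (-0.91) and VDAC3 (-0.62), and cyclic loess that of VDAC3 (-0.96). UCP2 kept its direction under the alternatives, falling to 0.13 with normexp, where it was no longer called.

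In Star CSC against Star parent none of the 10 was called in limma's fit, beside 9.72% of tested probes, and 4 had an unadjusted p under 0.05, beside 43.3% of tested probes. The median of the 10 was 0.09, against -0.10 over all tested probes. The same 4 had an adjusted p under 0.05, as did 29.5% of tested probes, with less than a 2-fold change: CYCS at 0.52 ± 0.09 (adjusted p = 0.00967), UCP2 at 0.96 ± 0.26 (0.0402), VDAC3 at -0.42 ± 0.10 (0.0274) and ATP5F1A at -0.37 ± 0.09 (0.0297). The second ATP5F1A probe stood at 0.050 ± 0.15 (adjusted p = 0.821, limma). CYCS was called with quantile normalization (1.04) and UCP2 with median scaling (1.20). Without Star parent replicate 2, UCP2 (1.28) and SSBP1 (2.03) were called as higher. In Star CSC against Stylo CSC none of the 10 was called, beside 29.4% of tested probes, and 5 had an unadjusted and an adjusted p under 0.05, which 62.5% and 57% of tested probes passed. SDHB (-0.98 ± 0.10), ATP5F1A (-0.96 ± 0.09), VDAC3 (-0.57 ± 0.10) and COX17 (-0.47 ± 0.12) were on the lower side in Star CSC and CYCS (0.38 ± 0.09) on the higher side. The second probes of SDHB and ATP5F1A gave smaller differences, -0.32 ± 0.09 (adjusted p = 0.0298, limma) and -0.11 ± 0.15 (adjusted p = 0.550, limma). CYCS was called with quantile normalization (1.25), under which ATP5F1A turned to 0.47. Without Stylo CSC replicate 2, ATP5F1A passed the 2-fold limit and was called as lower (adjusted p = 0.00486, limma). DLD is a subunit shared by the mitochondrial dehydrogenase complexes, ESRRA a nuclear receptor that drives respiratory genes, and PHB a scaffold of the inner membrane. By the probe that represents them they were called in none of the 4 comparisons at the reported scaling. Against Stylo parent, DLD was called as higher with normexp (1.57 in Star parent and 1.67 in Stylo CSC) and spike-in scaling (1.62 and 2.44). With spike-in scaling ESRRA (1.01 and 1.96) was called as higher in both, and PHB in Stylo CSC (1.16). The medians of all tested probes were then 1.01 and 1.69. Spike-in scaling also called all 3 genes as higher in Star CSC against Star parent. PHB had 3 probes that disagreed: of the other 2, both were called as lower in Star parent against Stylo parent, and 1 of them was also called as lower in Stylo CSC against Stylo parent and as higher in Star CSC against Stylo CSC.

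**Figure D4:**
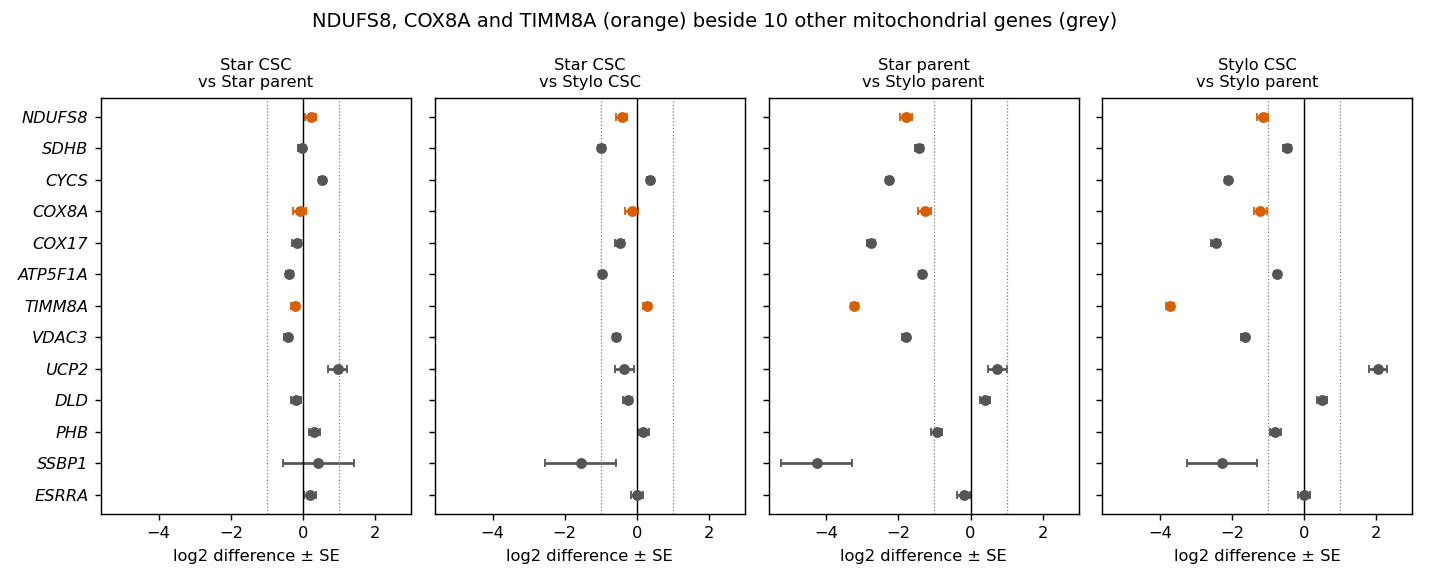
Log2 difference ± SE (horizontal axis) of NDUFS8, COX8A and TIMM8A (orange) and 10 other mitochondrial genes (grey) in 4 comparisons of 2 arrays with 2; dotted lines mark a 2-fold change. In Star CSC against Star parent no gene passes the dotted lines, while in both comparisons with Stylo parent NDUFS8, COX8A, TIMM8A, COX17, CYCS, VDAC3 and SSBP1 lie left of them.

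Likeness was measured as the root mean square difference of scaled log2 levels over the 8 arrays, each gene centred on its own mean, among 726 other named genes above background on all arrays. NDUFS8 and COX8A lay 0.24 apart, while TIMM8A lay 0.96 from NDUFS8 and 0.99 from COX8A. Nearest to NDUFS8 were BMPR1B (0.13), CAPS (0.14), EIF1 (0.16), ITGA2B (0.17) and PPP2CA (0.17). Nearest to COX8A were ANXA5 (0.11), CYP2C18 (0.12), THBD (0.13), RAB10 (0.14) and HGS (0.17). None of these 10 belongs to the mitochondrial lists. Little can be read from that, as only 10 other genes of those lists were tested, against 726 candidates. TIMM8A had more distant neighbours: IL5 (0.24), SELENOT (0.27), VMA21 (0.30), STK38L (0.33) and SLC35A1 (0.36). All 5 were, like TIMM8A, lower in both comparisons with Stylo parent, which their choice by likeness of profile all but ensures. IL5 had differences of -2.64 in Star parent and -3.30 in Stylo CSC. All profiles share the same arrays and the same scaling of the Stylo parent arrays.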

How the data were processed

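Per the file headers, the authors quantified the scans in Feature Extraction 11.5.1.1, and each spot carries an intensity, called processed signal, and flags. The deposited matrix holds log2 values; set against the scanner files it equals the log2 processed signal less the 75th percentile of each array, centred on each probe's median, with column medians of -0.27 to 1.01. Control and outlier spots were left out, log2 values were averaged over a probe's spots, and arrays were aligned at their 75th percentile. No gene probe was saturated. A probe was tested if well above background on both arrays of a group. Names came from RefSeq accessions (assembly UU_Cfam_GSD_1.0, names only): 2353 of 43603 probes (5.40%). No sequences or coordinates are given.

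Group means were fitted to all 8 arrays with limma 3.58.1 (R 4.3.3). Calls were two-sided, at an adjusted p (Benjamini-Hochberg over 26823 probes) under 0.05 with at least a 2-fold change. The fit was tested on simulated data for Star CSC against Star parent. It called 29.9% of true log2 changes of 1, 71.6% of those of 2 and 84.8% of those of 3. The simulation changed only 67, 67 and 66 of 26823 probes at these sizes. In the data 29.5% of tested probes passed an adjusted p under 0.05 in this comparison. A change of 1 also lies on the 2-fold limit of a call. The simulated shares are therefore not the power of this comparison. Other genes are represented by their tested probe with the highest mean level. Named genes are the 3 genes, all measured genes of the lists and the 5 nearest profiles for each of the 3. The members and lists were chosen with earlier results of these data known. Alternatives covered scaling, background correction, filters, the deposited matrix, the variance model, a replicate block and leaving out each array. Deviations from group means correlated at -0.07 to 0.07 between arrays of the same number. Such a correlation cannot show whether these arrays share a culture or a preparation, and the labels do not say. The number of arrays limits the precision.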

Additional observations from a re-analysis of the deposited data

Results flagged for a closer look

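The change with sorting can be set between the lines as the change in Star CSC against Star parent minus the change in Stylo CSC against Stylo parent, on the log2 scale. For NDUFS8, COX8A and TIMM8A this gap is a description with no test. NDUFS8 (1.38) was picked out because both Star CSC arrays lay above both Star parent arrays and both Stylo CSC arrays below both Stylo parent arrays. The nearest Star CSC and Star parent arrays stood at 5.08 and 5.05. Of all tested probes, 71.6% likewise did not overlap in Star CSC against Star parent and 88.9% in Stylo CSC against Stylo parent. The gap of NDUFS8 was not tested, and in Star NDUFS8 did not pass the test (adjusted p = 0.308, limma). For 5 of the 10 other mitochondrial genes the difference itself passed limma's test of the interaction, among 52.1% of tested probes called. It was 2.64 for CYCS (adjusted p = 4.97e-05), 2.29 for COX17 (adjusted p = 0.000117), 1.23 for VDAC3 (adjusted p = 0.000572), 1.12 for PHB (adjusted p = 0.00433) and -1.08 for UCP2 (adjusted p = 0.0425). The sign turned for VDAC3, PHB and UCP2 with normexp, which also ended the call of COX17 (0.83). The call of PHB ended with quantile normalization (0.68), median scaling (0.92), the percentile of detected probes (0.94), cyclic loess (0.66) and spike-in scaling (0.67), that of VDAC3 with quantile normalization (0.32), cyclic loess (0.67) and spike-in scaling (0.78), and that of UCP2 with cyclic loess (-0.98) and without a filter on dim probes (adjusted p = 0.0515). The call of UCP2 also ended without any 1 of 6 arrays (adjusted p = 0.0834 without Star CSC replicate 1, 0.0960 without Star CSC replicate 2, 0.0936 without Star parent replicate 2, 0.0868 without Stylo CSC replicate 1, 0.109 without Stylo CSC replicate 2 and 0.102 without Stylo parent replicate 1), and that of PHB without Star CSC replicate 2 (0.94, under the fold limit).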

How the results depend on the processing

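TIMM8A kept a negative difference from Stylo parent under all alternatives. No member was called in the 2 tested comparisons except with spike-in scaling; the cause of the changes below was not tested. In Star CSC against Star parent, COX8A changed sign with quantile normalization (0.36), median scaling (0.15), cyclic loess (0.10), spike-in scaling (1.43), normexp (0.086) and when arrays were left out (-0.19 to 0.021; 0.021 without Star parent replicate 2), and TIMM8A with median scaling (0.012) and spike-in scaling (1.29). Spike-in scaling also called NDUFS8 (1.73), so 3 members and 10 of the other genes were called as higher; quantile normalization and median scaling called 1 each and leaving out arrays 0 to 2. ATP5F1A turned to 0.18 with quantile normalization and 1.14 with spike-in scaling, and VDAC3 to 1.09. In Star CSC against Stylo CSC, NDUFS8 changed sign with quantile normalization (0.14), cyclic loess (0.092) and spike-in scaling (0.34), and COX8A with these (0.86, 0.54 and 0.62), median scaling (0.067), the percentile of detected probes (0.0051) and normexp (0.20). Spike-in scaling called 1 member, TIMM8A (1.05), and 1 other gene as higher; quantile normalization called 1 other gene as higher and no member; 1 other gene was lower with only the 4 arrays compared and 0 to 1 when arrays were left out. ATP5F1A turned to 0.47 with quantile normalization, COX17 to 0.28 and VDAC3 to 0.18 with spike-in scaling.

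In Star parent against Stylo parent, 1 member rather than 3 was at least 2-fold lower with quantile normalization, cyclic loess, spike-in scaling and normexp. COX8A turned to 0.44 with quantile normalization, 0.12 with cyclic loess and 0.44 with normexp, ATP5F1A to 0.71, 0.32 and 0.50, and SDHB to 0.11 with normexp. The other genes called lower were 2, 3, 3 and 2 under those 4 settings, and those called higher 1 with median scaling, the percentile of detected probes and normexp, 3 with spike-in scaling and 0 to 1 when arrays were left out. In Stylo CSC against Stylo parent, 1 member was at least 2-fold lower with these 4 and with median scaling. NDUFS8 turned to 0.81 and 0.38 and COX8A to 0.74 and 0.32 with spike-in scaling and normexp, and VDAC3 to 0.31 with spike-in scaling. The other genes called lower were 1 with quantile normalization and 0 with spike-in scaling and normexp, and those called higher were 6 and 2 with the last 2. The gap between the sorts turned to -0.043 for NDUFS8, -0.24 for COX8A, -0.27 for PHB, 0.29 for UCP2 and -0.21 for VDAC3 with normexp.

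Over all probes, calls in Star CSC against Star parent were 20446 with spike-in scaling, 1143 with normexp and 1339 with probes above background on all arrays, against 2608; in Star CSC against Stylo CSC, 4019 and 4557 with the last 2, against 7897. Without a filter the comparisons with Stylo parent gave 26734 and 28650 and the gap between sorts 21988, against 15167, 14483 and 13987. Of the calls, 66.9% were lower in Star CSC against Star parent, but 53.4% with quantile normalization, 52.5% with cyclic loess, 41.3% with median scaling and 0.91% with spike-in scaling. For Star parent against Stylo parent this was 56.5%, but 44.7% with quantile normalization, 43.1% with median scaling, 45.7% with the percentile of detected probes, 20.6% with spike-in scaling and 74.8% with normexp. For Star CSC against Stylo CSC it was 57.2%, but 43.8% with median scaling and 17.6% with spike-in scaling, and for Stylo CSC against Stylo parent 59.4%, but 46.1% with quantile normalization, 42.8% with median scaling, 48.2% with cyclic loess, 2.90% with spike-in scaling and 74.2% with normexp. The replicate block changed no call of the 3 genes, and the labels do not say what arrays of the same number share. With it, limma's adjusted p was 0.309, 0.754 and 0.224 for NDUFS8, COX8A and TIMM8A in Star CSC against Star parent. In Star CSC against Stylo CSC it was 0.0686, 0.555 and 0.0911 in the same order.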

Other observations

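SSBP1 and 1 PHB probe, picked out after their values were seen, differed widely between replicates in the Star groups. SSBP1 had scaled log2 levels of 0.83 and 1.79 in Star CSC and -0.72 and 2.48 in Star parent, against 2.93 and 2.80 in Stylo CSC and 5.19 and 5.10 in Stylo parent. The PHB probe stood at -0.66 and 3.29 in Star CSC and -1.81 and 2.85 in Star parent, against 3.33 and 3.29 in Stylo CSC and 5.40 and 5.32 in Stylo parent. In each Star group replicate 1 was the lower.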
